A study of Mus musculus with 10 samples.

Results

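Axon guidance ligands and receptors were followed by RNA sequencing of calf muscle of desmin knock-out and wild-type mice. The labels name gastrocnemius alone, whereas the study's text speaks of gastrocnemius together with the neighboring plantaris. The genes were taken from the deposited expression table by symbol. They comprised the protein-coding genes of the semaphorin (Sema), plexin (Plxn), Slit, Robo, netrin (Ntn), Unc5, Eph receptor and ephrin (Efn) families. This gave 64 of the 54232 genes in the table. Of these, 46 reached an average of log2(10) across the 10 mice and were tested among the 14289 genes that did so. The study asked how loss of desmin, the intermediate filament protein of muscle, affects the neuromuscular junction (NMJ) and muscle transcription. Desmin knock-out mice (Des -/-, 5 mice) were compared with wild-type mice (Des wt/wt, 5 mice, littermates per the methods). All animals were 3 months old, untreated and labelled with 1 congenic strain (laboratory code Cscl), in which the Destm1Cba allele was brought from 129Sv onto B6J. The knock-out affects the animal as a whole and not muscle fibers alone. The methods speak of pooled RNA, but the deposited columns are 1 per mouse, and each was taken as 1 replicate.

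Guidance proteins were named for steering growing axons. Semaphorins signal through plexins, often with neuropilins as co-receptors, Slits signal through Robo receptors, and netrins through Dcc, neogenin and the Unc5 receptors. Ephrins sit on the cell surface and activate Eph receptor tyrosine kinases on a neighboring cell, and ephrin-bearing cells can signal in reverse. The same families act outside the nervous system. EphB4 and ephrin-B2 mark veins and arteries, Robo4 belongs to endothelium, and in muscle some semaphorins, netrins and ephrins are known to guide motor axons and to be made by fibers, satellite cells or vessels. The cell bodies of the motor neurons lie in the spinal cord, outside the sampled tissue.

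The values are regularized log (rlog) values, a log2 measure corrected for library size in which each gene is shrunken towards its own average. Differences are given as knock-out minus wild-type on this scale with their standard error (SE), and they understate log2 fold changes of counts. Des (ENSMUSG00000026208, chromosome 1, 75360329 to 75368579 on GRCm38) had values from 11.76 to 11.89 in knock-out and from 16.10 to 17.74 in wild-type mice, so each library carried the level of its label. Wild-type mouse 3 stood apart, with a mean correlation of 0.982 with the other mice of its genotype compared with 0.989 to 0.997 for the remaining 9 mice. Such values do not give the depth of a library, and counts were not used here. Skeletal muscle transcripts such as Myh4 and Acta1 were at mean rlog values of 20.23 and 20.08. Of 6 motor neuron markers, 5 lay under the expression limit, with Slc18a3 and Mnx1 listed at 0 in all 10 mice.

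In desmin knock-out muscle, 1 of the 46 tested axon guidance genes was higher and 7 were lower (limma, adjusted p under 0.05). The netrin gene Ntn4 rose. The Eph receptor gene Ephb4, the plexin gene Plxnb3 and the semaphorin genes Sema7a, Sema3g, Sema6d, Sema4c and Sema4d fell. These 8 genes are 17.4% of the tested members, where 13.7% of all tested genes passed, so the share of changed genes was near that of the transcriptome. Without wild-type mouse 3, 2 members rose and 7 fell. Counts over all tested genes also changed with 1 mouse left out. In bulk muscle, fewer cells of a type and less RNA per cell cannot be told apart. By direction, 2.17% of the members were higher, where 7.7% of all tested genes were, and 15.2% were lower, where 5.99% of all tested genes were. These shares rest on few genes and were not tested against each other. The median difference of the 46 genes was -0.02 and that of all tested genes -0.003, and 26 of the 46 had a lower mean in knock-out muscle. The knock-out values of 8 members did not overlap with the wild-type values (14.4% of all tested genes), 1 of them lying above (7.45%) and 7 below (6.97%). Sema4c is the changed gene whose groups overlapped, and the ephrin gene Efnb1 did not overlap but missed the threshold. Differences of the 38 genes that did not pass lay between -0.43 and 0.46, and for 24 of them the 95% interval stayed within 0.58 of no difference in either direction.

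**Figure D1:**
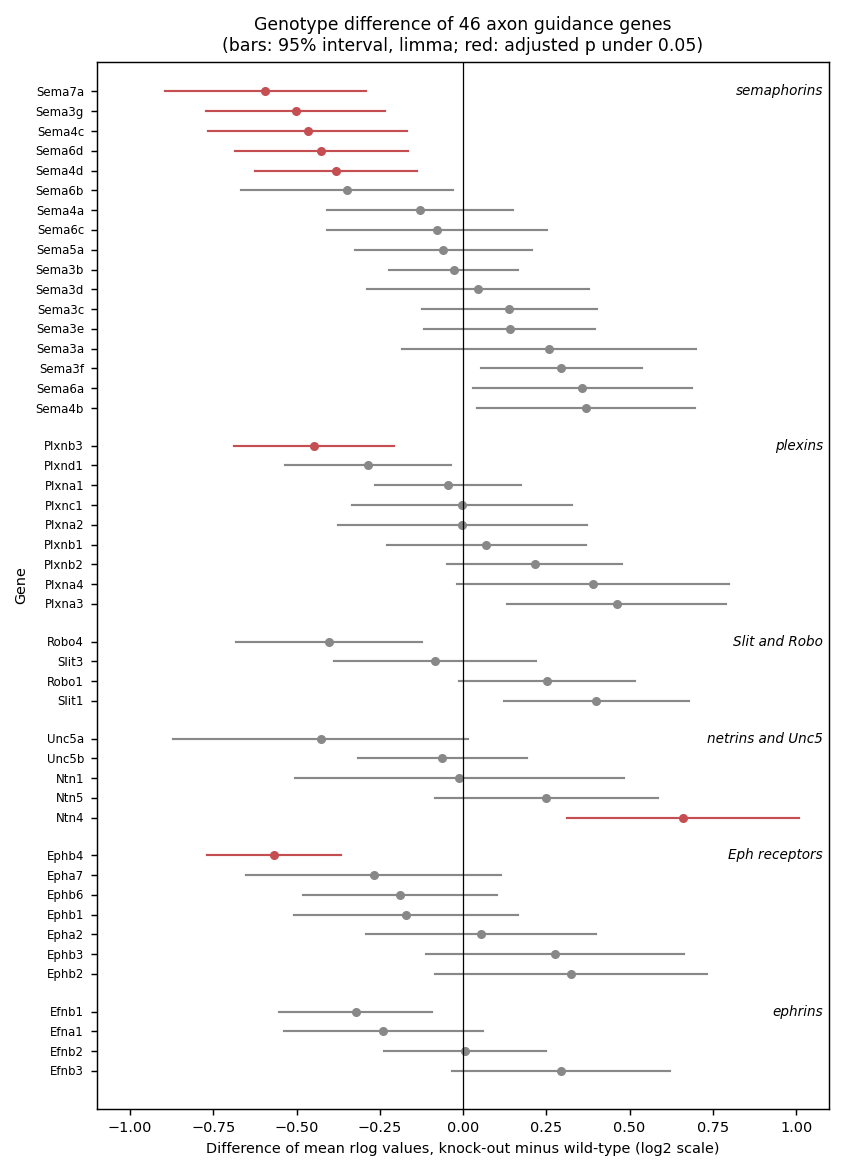
Difference of the mean rlog value (knock-out minus wild-type, log2 scale, x axis) of each of the 46 tested axon guidance genes (y axis), grouped by family. Points are differences, bars are 95% intervals from limma, and red marks an adjusted p under 0.05. Ntn4 at 0.66 is the single red point on the right, and 7 red points lie on the left between -0.59 and -0.38.

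RefSeq promoter windows (GRCm38.p6, 250 bases before to 50 bases after the annotated start) were matched by symbol for 55 of the 64 genes. The windows of the 3 changed genes with the smallest adjusted p are printed because each has a single annotated start and because they include falls and the rise. Capitals mark the GC box GGGCGG on either strand, where overlapping matches merge into 1 run. The windows are chr5:137349859-137350158 for Ephb4, chr9:57939862-57940161 for Sema7a and chr10:93640799-93641098 for Ntn4, all on the plus strand.
Ephb4: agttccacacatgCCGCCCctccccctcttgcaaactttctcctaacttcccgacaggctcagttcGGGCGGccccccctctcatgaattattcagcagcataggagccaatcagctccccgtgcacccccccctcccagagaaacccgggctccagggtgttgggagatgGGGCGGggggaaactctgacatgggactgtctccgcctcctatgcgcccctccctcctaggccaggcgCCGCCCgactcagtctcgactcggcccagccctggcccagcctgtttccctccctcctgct
Sema7a: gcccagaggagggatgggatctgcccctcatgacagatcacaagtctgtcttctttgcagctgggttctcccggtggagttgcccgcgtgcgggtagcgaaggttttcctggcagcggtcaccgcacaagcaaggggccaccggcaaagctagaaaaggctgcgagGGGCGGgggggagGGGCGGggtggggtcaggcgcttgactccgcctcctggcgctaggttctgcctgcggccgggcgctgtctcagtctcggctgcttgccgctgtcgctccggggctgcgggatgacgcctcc
Ntn4: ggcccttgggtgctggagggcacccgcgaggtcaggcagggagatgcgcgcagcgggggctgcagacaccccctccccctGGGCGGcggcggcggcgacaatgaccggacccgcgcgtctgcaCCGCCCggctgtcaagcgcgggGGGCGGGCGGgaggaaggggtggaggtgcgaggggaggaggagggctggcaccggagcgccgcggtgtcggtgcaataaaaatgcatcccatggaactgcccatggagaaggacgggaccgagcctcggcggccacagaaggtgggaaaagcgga
The GC box occurred 4 times for Ephb4, 2 times for Sema7a and 4 times for Ntn4, and it was present in 35.7% of all 32851 windows of this length. CpG dinucleotides numbered 14, 23 and 31 in the same order, compared with a median of 7 over all windows. None of the 3 windows held the letters CCGGAA or TATAAA on either strand (14.9% and 13.6% of all windows), and the E-box CAGCTG occurred 1 time for Sema7a and in 16.3% of all windows. All 3 windows were thus richer in CpG than the median window, the falling genes and the rising gene alike. This did not hold for every changed gene. CpG dinucleotides numbered 8 for Sema3g, 4 for Plxnb3, 14 and 6 for Sema6d, 19 and 30 for Sema4c and 3, 2 and 3 for Sema4d. The window of Plxnb3 held 0 GC boxes.

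Semaphorins, the largest family, are secreted or membrane-bound ligands. Of 20 genes, 17 were tested, 5 fell and none rose. Sema7a (ENSMUSG00000038264, chromosome 9, 57940112 to 57962865) encodes a lipid-anchored semaphorin that binds plexin-C1 and β1 integrin. Its rlog values were 7.97, 7.57, 7.38, 7.84 and 7.90 in knock-out mice 1 to 5 and 8.44, 8.52, 8.05, 8.14 and 8.49 in wild-type mice 1 to 5. No knock-out mouse reached the lowest wild-type mouse, although knock-out mouse 1 and wild-type mouse 3 were close. The difference was -0.59 (SE 0.14, limma adjusted p = 0.0119). Sema3g (ENSMUSG00000021904, chromosome 14, 31217860 to 31230352), a secreted class 3 semaphorin known from arterial endothelium, had 8.05, 7.92, 7.56, 7.99 and 7.73 in knock-out and 8.29, 8.60, 8.28, 8.12 and 8.48 in wild-type mice. Again no value overlapped, with a difference of -0.50 (SE 0.12, limma adjusted p = 0.0164). Both genes passed with any 1 mouse left out, Sema3g barely. The limma adjusted p reached 0.0381 for Sema7a and 0.0498 for Sema3g.

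Sema6d, Sema4c and Sema4d are membrane-bound semaphorins that passed less firmly. Sema6d (ENSMUSG00000027200, chromosome 2, 124089969 to 124667770), a ligand of plexin-A1, had 7.92, 7.82, 7.63, 7.87 and 7.91 in knock-out and 8.13, 8.32, 7.94, 8.33 and 8.56 in wild-type mice. Wild-type mouse 3 was the lowest of its group and nearly touched the knock-out values. The difference was -0.43 (SE 0.12, limma adjusted p = 0.0323). Sema4c (ENSMUSG00000026121, chromosome 1, 36548639 to 36558349), a ligand of plexin-B2 that is known from differentiating myoblasts, had 6.99, 7.16, 6.79, 7.09 and 6.96 in knock-out and 7.47, 7.55, 7.01, 7.51 and 7.79 in wild-type mice. Here wild-type mouse 3 lay among the knock-out mice. The difference was -0.47 (SE 0.14, limma adjusted p = 0.0401) and without this mouse -0.58 (limma adjusted p = 0.00227). Of the exon bases of Sema4c, 7.27% overlap with exons of D430040D24Rik on the opposite strand, and whether reads were counted by strand is not given in the sources used here.

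Sema4d (ENSMUSG00000021451, chromosome 13, 51685529 to 51793747) encodes a ligand of plexin-B1 and plexin-B2 and had the highest rlog mean of the family. Its values were 11.29, 11.45, 11.52, 11.37 and 11.40 in knock-out and 11.59, 11.73, 12.20, 11.75 and 11.65 in wild-type mice. The groups did not overlap, and wild-type mouse 3 stood above the other 4. The difference was -0.38 (SE 0.11, limma adjusted p = 0.0401) and without wild-type mouse 3 it was -0.28 (limma adjusted p = 0.0132). With 1 mouse left out at a time, Sema6d lost its adjusted p under 0.05 in 8 of 10 cases, Sema4c in 9 and Sema4d in 7, the adjusted p reaching 0.0839, 0.0971 and 0.0993 (limma). The number of members that fell was 4 without knock-out mouse 2, 3, 4 or 5 or without wild-type mouse 2 or 4.

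**Figure D2:**
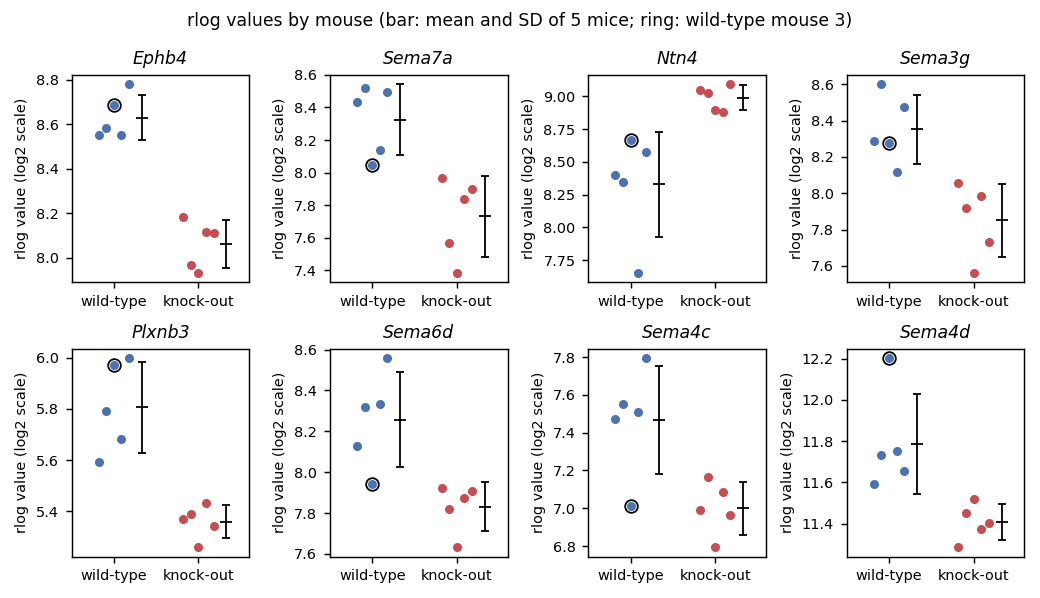
The rlog values (log2 scale, y axis) of the 8 changed genes in each wild-type (blue) and knock-out (red) mouse, with the mean and SD of 5 mice beside the points and a ring around wild-type mouse 3. The y axes do not start at 0. In 7 of the 8 panels the groups do not overlap, and in the panel of Sema4c the ringed mouse lies among the knock-out mice.

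Sema3a, a secreted repellent of motor axons that is also made by satellite cells, had 6.18, 5.90, 6.09, 6.53 and 6.29 in knock-out and 6.44, 5.90, 5.26, 5.75 and 6.35 in wild-type mice. Wild-type mice 2, 3 and 4 lay below every knock-out mouse and wild-type mice 1 and 5 within their range. The difference of 0.26 did not pass (95% interval -0.18 to 0.70, limma adjusted p = 0.444), and it was 0.09 without wild-type mouse 3 and 0.001 with Y-linked transcripts as a covariate. The other 11 semaphorins that did not pass had differences from -0.35 for Sema6b to 0.37 for Sema4b.

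All 9 plexin genes, the receptors of semaphorins, were tested, and 1 fell. Plxnb3 (ENSMUSG00000031385, X chromosome, 73757090 to 73772514) encodes a receptor of Sema5a. It had 5.37, 5.39, 5.26, 5.43 and 5.34 in knock-out and 5.59, 5.79, 5.97, 5.68 and 5.997 in wild-type mice. Every knock-out value lay below every wild-type value, and the difference was -0.45 (SE 0.11, limma adjusted p = 0.0165). Its ligand Sema5a had a difference of -0.06 (95% interval -0.33 to 0.21). Plxnd1, a receptor of vascular endothelium with the highest rlog mean among plexins, averaged 9.93 ± 0.14 in knock-out and 10.22 ± 0.23 in wild-type muscle (SD, n = 5 each), a difference of -0.28 (limma adjusted p = 0.129) that was -0.12 with sample weights. Plxna3 had the largest difference of the family, 0.46 (limma adjusted p = 0.0629), and the knock-out mice other than mouse 3 exceeded every wild-type mouse. The X chromosome thus holds the plexin with the largest fall and the plexin with the largest positive difference.

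The plexins known as receptors of Sema7a, Sema4c, Sema4d and Sema6d did not pass. These partners, Sema5a above and Efnb2, Unc5b and Robo1 below were chosen after the values had been seen. Plxnc1, a receptor of Sema7a, had a difference of -0.004 (95% interval -0.33 to 0.33). Plxnb1, a receptor of Sema4d, and Plxnb2, which binds Sema4c and Sema4d, had 0.07 (95% interval -0.23 to 0.37) and 0.21 (95% interval -0.05 to 0.48). Plxna1, a receptor of Sema6d, had -0.05 (95% interval -0.26 to 0.17). The interval of Plxnb2 lay mostly above 0, and those of the other 3 plexin genes spanned differences of either sign. Itgb1, the gene of the Sema7a partner β1 integrin, was also chosen after its values had been seen. Its difference was 0.29 (95% interval 0.09 to 0.49). All its knock-out values lay above the wild-type values, but it missed the threshold (limma adjusted p = 0.0557).

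Of the 7 Slit and Robo genes, 4 were tested and none passed. Slit1, a secreted repellent, came closest. It had 6.54, 6.56, 6.67, 6.80 and 6.68 in knock-out and 6.09, 6.21, 6.59, 5.96 and 6.40 in wild-type mice. Only wild-type mouse 3 reached into the knock-out range. The difference was 0.40 (SE 0.13, limma adjusted p = 0.0556) and passed without this mouse (0.48, limma adjusted p = 0.0101). Slit1 also passed with Y-linked transcripts as a covariate (limma adjusted p = 0.0366), with a variance prior without trend and with sample weights. It did not pass in the other 14 of 18 refits, with a limma adjusted p of up to 0.140. Slit1 was looked at after its values had been seen. Robo4, the endothelial Robo receptor with the highest rlog mean of the family, had 8.39, 7.92, 7.97, 8.12 and 7.995 in knock-out and 8.15, 8.40, 8.51, 8.58 and 8.77 in wild-type mice. Knock-out mice 2, 3, 4 and 5 were below every wild-type mouse and mouse 1 was not, with a difference of -0.40 (SE 0.13, limma adjusted p = 0.0569). Without knock-out mouse 1 the difference of Robo4 was -0.48 (limma adjusted p = 0.0325) and without wild-type mouse 1 -0.49 (limma adjusted p = 0.0224). Median centring, quantile normalization and sample weights also brought Robo4 past the threshold (limma adjusted p = 0.0364, 0.0291 and 0.0371). The other 13 of 18 refits did not, with a limma adjusted p of up to 0.140 without knock-out mouse 2. Robo1, a Slit receptor of axons, had a difference of 0.25 (95% interval -0.01 to 0.52). Slit2 lay under the limit, with 2.82 to 3.19 in knock-out and 2.70 to 3.02 in wild-type mice.

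Among the 7 netrin and Unc5 genes, 5 were tested and 1 rose. Ntn4 (ENSMUSG00000020019, chromosome 10, 93640681 to 93747207) encodes netrin-4, a secreted protein that binds laminin in basement membranes, those of vessels among them. Its values were 9.05, 9.02, 8.89, 8.88 and 9.10 in knock-out and 8.40, 8.35, 8.66, 7.65 and 8.58 in wild-type mice. All knock-out mice lay above all wild-type mice, and the wild-type mice were spread more widely, with mouse 4 as the lowest. The difference was 0.66 (SE 0.16, limma adjusted p = 0.0150), and it was 0.49 (limma adjusted p = 0.00634) without wild-type mouse 4. Ntn1, the founding axon attractant, had 7.33, 7.62, 7.19, 7.56 and 7.29 in knock-out and 7.54, 7.51, 6.72, 7.01 and 8.26 in wild-type mice. The wild-type range enclosed the knock-out range, and the difference was -0.01 (95% interval -0.50 to 0.48). Unc5a, a netrin receptor with the highest rlog mean of this family, had a difference of -0.43 (limma adjusted p = 0.196), which was -0.21 without wild-type mouse 3 with its value of 10.40 and -0.09 with sample weights. Unc5b, a netrin receptor of vessels, had -0.06 (95% interval -0.32 to 0.19).

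Of 13 Eph receptor genes, 7 were tested and 1 fell. Ephb4 (ENSMUSG00000029710, chromosome 5, 137350109 to 137378669), the receptor that marks veins, had the smallest adjusted p of all axon guidance genes. Its values were 8.18, 7.97, 7.93, 8.12 and 8.11 in knock-out and 8.55, 8.58, 8.68, 8.55 and 8.78 in wild-type mice. The groups were separated by more than the range within either of them. The difference was -0.57 (SE 0.09, limma adjusted p = 0.00114) and stayed between -0.60 and -0.53 with each mouse left out in turn. Means were 8.06 ± 0.11 for knock-out and 8.63 ± 0.10 for wild-type muscle (SD, n = 5 each). The other 6 Eph receptor genes had differences from -0.27 to 0.32.

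Of 8 ephrin genes, 4 were tested and none passed. Efnb2, the arterial ligand of EphB4, had 7.12, 6.97, 6.77, 6.86 and 6.91 in knock-out and 6.85, 7.06, 6.78, 6.77 and 7.14 in wild-type mice. Both groups covered nearly the same range, and the difference was 0.006 (95% interval -0.24 to 0.25). Whether Ephb4 and Efnb2 differed from each other in their response was not tested. Efnb1, a transmembrane ephrin, had 7.26, 7.44, 6.97, 7.33 and 7.32 in knock-out and 7.62, 7.505, 7.59, 7.69 and 7.53 in wild-type mice. The groups did not overlap, though knock-out mouse 2 and wild-type mouse 2 were close. Its difference of -0.32 (SE 0.11) missed the threshold (limma adjusted p = 0.0632). Efnb1 passed with median centring, quantile normalization or sample weights (limma adjusted p = 0.0426, 0.0293 and 0.0291) and not in the other 15 of 18 refits. Efna1, the ephrin with the highest rlog mean, had a difference of -0.24 (95% interval -0.54 to 0.06). It was -0.13 without wild-type mouse 4 and passed with sample weights (-0.29, limma adjusted p = 0.0292). Efna5 lay under the limit, with 2.95 to 3.02 in knock-out and 2.62 to 3.19 in wild-type mice.

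Markers of vessel endothelium moved in the same direction as Ephb4, Sema3g and Robo4, of which Robo4 missed the threshold. Other members described above as known from vessels did not all follow. Efnb2 (0.006), Unc5b (-0.06) and Plxnd1 (-0.28) did not pass, and Ntn4 rose (0.66). Of 10 endothelium markers, 6 were lower and none higher at an adjusted p under 0.05 (limma), with a median difference of -0.45. Of all tested genes, 5.99% were lower. Eng, the endothelial endoglin, fell most (-0.80, SE 0.13). The junction genes Pecam1 (-0.49) and Cdh5 (-0.52) fell as well, as did Vwf (-0.62), Tie1 (-0.48) and Tek (-0.41). Kdr, the VEGF receptor gene, had -0.27 and did not pass, and neither did Emcn (-0.35), Esam (-0.19) and Cldn5 (-0.13). The summed level of the list, summed on the linear scale and returned to log2, ranged from 12.19 to 12.62 in knock-out and from 12.67 to 13.08 in wild-type mice. None of the 10 markers was under the limit. The part of these markers in the differences of Ephb4, Sema3g and Robo4 was not tested.

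Of 10 macrophage markers none passed, and of 4 adipocyte markers none passed. Among 8 smooth muscle and pericyte markers 1 was higher (Cspg4, 1.02) and none lower, although the median difference of this list was -0.26. Among 8 fibroblast markers 3 were higher and 1 lower, and among 10 Schwann cell markers 2 were higher. Of 6 satellite cell markers 1 was higher and 1 lower, of 4 erythroid markers 2 were lower, and of 6 skeletal muscle markers 1 was lower (Myh4, fast myosin, -0.71). The summed levels of the erythroid and the skeletal muscle list did not overlap either, being lower in knock-out mice (11.25 to 11.80 against 11.84 to 13.17, and 22.00 to 22.15 against 22.22 to 23.23). Prph, the single motor neuron marker above the limit, was higher (0.65). Of 10 genes listed for denervated muscle, 9 were higher, where 7.7% of all tested genes were, with a median difference of 1.14 and no gene lower. The list is not particular to denervation, since the study describes the receptor subunit encoded by Chrng (1.85) as marking fiber regeneration. Whether the rise belongs to denervation or regeneration was not tested.

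Co-receptors and signaling partners of the guidance receptors were followed as a list of 78 genes, of which 67 were tested. By limma with an adjusted p under 0.05, 8 of them were higher (11.9%, where 7.7% of all tested genes were) and 11 lower (16.4%, where 5.99% were), and the median difference was -0.03. The 8 include Cntn2, named here after its values had been seen. It averaged 3.23 in wild-type mice, under the limit, and 4.54 in knock-out mice, and so was tested only through its knock-out values. The 4 with the smallest p among the higher genes were Ablim1, an actin-binding LIM protein gene (1.79, SE 0.11), Nrcam, a cell adhesion molecule and semaphorin co-receptor gene (1.29, SE 0.12), Srgap3, a Slit-Robo GTPase-activating protein gene (1.57, SE 0.15), and Flrt2, a ligand gene of Unc5 receptors (1.00, SE 0.16). For each of the 4, the lowest knock-out value exceeded the highest wild-type value. Flrt2 had 8.58, 8.56, 8.33, 8.66 and 8.60 in knock-out and 7.77, 7.80, 7.41, 6.96 and 7.79 in wild-type mice, a wider gap than that of Ntn4. Among the lower genes the smallest p belonged to Dpysl5, a collapsin response mediator gene (-1.06, SE 0.14), Mical2, an actin-oxidizing enzyme gene (-1.05, SE 0.16), Tiam1, a Rac activator gene (-1.08, SE 0.16), and Rgma, a neogenin ligand gene (-0.67, SE 0.13). These, too, separated the genotypes completely. All 8 of these genes passed with any 1 mouse left out.

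Among co-receptors picked after the values were seen, Nrp1, the neuropilin shared by class 3 semaphorins and VEGF in endothelium, was lower. It had 8.97, 8.36, 8.08, 8.46 and 8.46 in knock-out and 8.70, 9.26, 9.42, 8.999 and 9.05 in wild-type mice. Knock-out mouse 1 lay above wild-type mouse 1, and the difference was -0.62 (SE 0.16, limma adjusted p = 0.0236). With 1 mouse left out at a time Nrp1 lost its call in 5 of 10 cases (knock-out mouse 2, 3, 4 or 5 or wild-type mouse 2), the adjusted p reaching 0.0633. It also lost the call without an expression limit (limma adjusted p = 0.0655) and with Y-linked transcripts as a covariate (-0.50, limma adjusted p = 0.0510). Dcc, the netrin receptor of commissural axons, was listed at 0 in all 10 mice.

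Levels can be compared between genes only per length, for which log2 of the exon length in kb was taken from the rlog mean. On this scale Sema4d and Sema6c ranked highest in wild-type muscle (8.85 and 8.75), followed by Sema3c (7.90), Efna1 (7.55), Unc5a (7.46) and Plxnd1 (7.35). Sema4d and Sema6c did not differ beyond their SDs of 0.24 and 0.33. In knock-out muscle Sema6c (8.68) and Sema4d (8.47) held the first ranks. Ntn4 was at 6.42 in wild-type and 7.09 in knock-out muscle, and Ephb4 at 6.42 and 5.85. The lowest tested genes were Robo1 (-0.09) and Ephb2 (-0.18) in wild-type muscle.

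**Figure D3:**
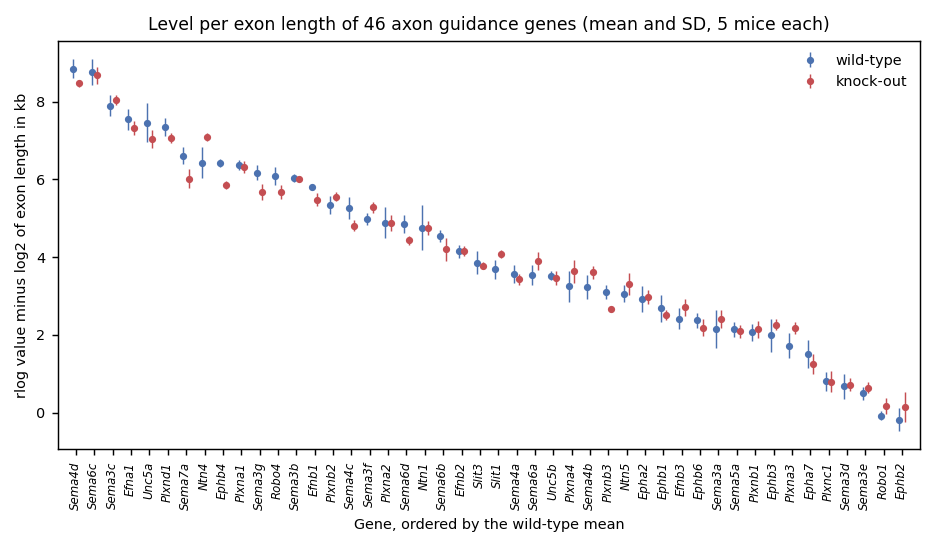
Level per exon length (rlog mean minus log2 of exon length in kb, y axis) of the 46 tested axon guidance genes, ordered by the wild-type mean (x axis). Points are means and bars SDs of 5 wild-type (blue) and 5 knock-out (red) mice. Sema4d leads in wild-type muscle at 8.85 and Ephb2 is last at -0.18.

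The 18 genes under the limit were 6 Eph receptors, 4 ephrins, 3 semaphorins, 2 Unc5 receptors, 2 Robo receptors and Slit2. Epha5 and Epha6 were listed at 0 in all 10 mice. Nearest to the limit from below were Robo2 and Efna2 (means of 3.12 and 3.10), and from above Ephb2 and Sema3e (3.64 and 3.78). For genes at such levels the rlog values are drawn together most strongly, and no difference is given for them.

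Mice of 1 genotype also differed from each other in many guidance genes at once. Knock-out mouse 3 had the lowest knock-out value for 28 of the 46 genes (60.9%), whereas it was lowest for 22.1% of all tested genes. Knock-out mouse 1 was highest for 45.7% of the members (22.1% of all tested genes), and wild-type mouse 5 was highest for 45.7% (18.7% of all tested genes). Wild-type mouse 3, which stood apart over all genes, was lowest for 34.8% of the members and for 32.5% of all tested genes. Knock-out mouse 3 also had the lowest summed level of endothelium markers (12.19) and knock-out mouse 1 the highest of its genotype (12.62). Among wild-type mice, mouse 5 had a sum of 12.92, below that of mouse 2 (12.94), and mouse 3 had the highest (13.08). Knock-out mouse 3 also had the lowest knock-out sum for fibroblast (13.82), smooth muscle and pericyte (13.49), macrophage (11.265) and Schwann cell (10.45) markers. Its satellite cell (11.16) and adipocyte (9.16) sums were the highest. Wild-type mouse 5 had the highest wild-type fibroblast (14.37), smooth muscle and pericyte (14.33) and Schwann cell (10.83) sums. Its satellite cell (10.89) and adipocyte (8.29) sums were the lowest. The part of cell composition in these differences between mice was not tested. The median SD of the members was 0.17 in knock-out and 0.24 in wild-type mice, and 0.20 in wild-type mice without mouse 3.

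**Figure D4:**
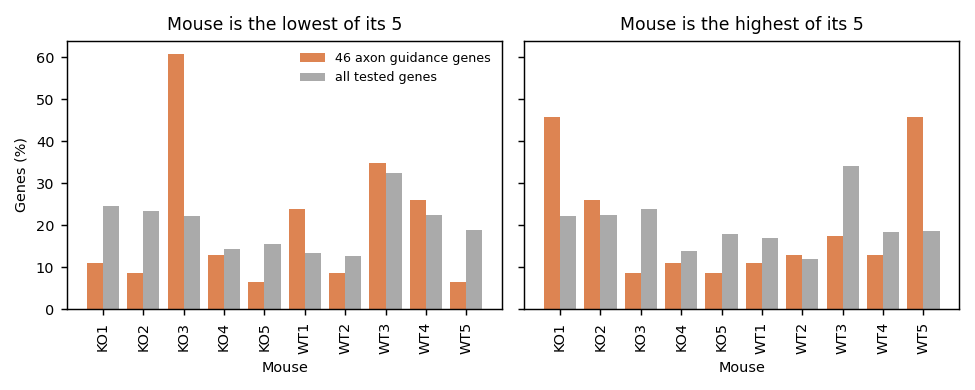
Percentage of genes (y axis) for which each mouse (x axis, KO knock-out and WT wild-type) had the lowest (left) or the highest (right) value of the 5 mice of its genotype. Orange bars are the 46 axon guidance genes and gray bars all tested genes, and the orange bar of knock-out mouse 3 in the left panel reaches 60.9%.

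The count of changed members depended on the settings of the test. With each mouse left out in turn, between 4 and 7 members fell and 1 or 2 rose, the additional rise being Slit1 without wild-type mouse 3 and Plxna3 without wild-type mouse 4. With sample weights, in which wild-type mouse 3 counted least, 7 were higher and 11 lower, and all 8 genes changed without weights were among them. Of all 14289 tested genes, 2093 were higher and 2127 lower with weights, compared with 1100 and 856 without. The larger count of members was thus matched by larger counts over all tested genes. At an adjusted p under 0.01, Ephb4 was the single gene left. Ephb4, Sema7a, Ntn4 and Sema3g passed 0.05 in each of the 18 refits. Their largest limma adjusted p was 0.00901, 0.0381, 0.0449 and 0.0498 in this order.

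**Figure D5:**
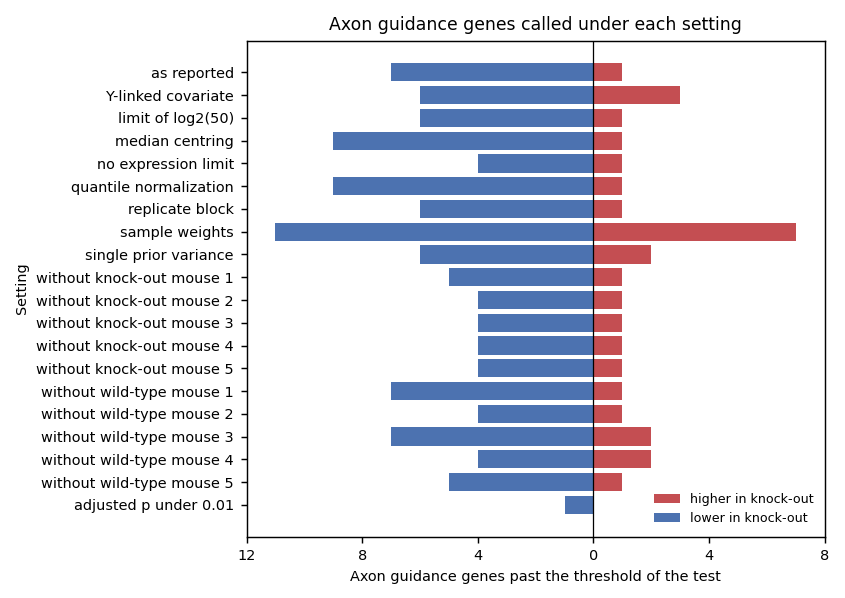
Number of axon guidance genes (x axis) higher (red, to the right) or lower (blue, to the left) in knock-out muscle under each setting (y axis). The threshold is an adjusted p under 0.05 in every row but the last. As reported, 1 is higher and 7 are lower, and sample weights give 7 and 11. Over all 14289 tested genes these settings give 1100 higher and 856 lower, and 2093 and 2127.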

How the data were processed

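RNA of 5 desmin knock-out and 5 wild-type gastrocnemius muscles was sequenced from stranded mRNA libraries. Per the labels, the authors' processing notes name cutadapt 2.5, STAR 2.5.4a, Subread 1.6.1 with featureCounts, DESeq2 and GRCm38. The log2 values deposited by the authors are rlog values made with DESeq2, 1 column per mouse. Their shrinkage is strongest at low levels. Depth and counting error are unknown. Annotation came from GENCODE M21 (GRCm38), which held 54165 of the 54232 genes, and exon lengths are the union of exons of a gene. Differences were tested with limma 3.58.1 (R 4.3.3, two-sided), using moderated variances with a trend on expression and adjusting p by Benjamini-Hochberg across all 14289 genes above the limit. The procedure was tested on simulated data. Members and lists were chosen with earlier results of these data known. Named genes were all members past the threshold, the member with the highest mean and the one with the largest difference in each family, Sema3a, Slit2, Ntn1 and Efna5, and the 4 pathway genes with the smallest p in each direction. Other genes are said to be chosen later or serve as markers. A further gene of these families is not reported here. No source says which mice share a litter, so p-values measure only the spread between these mice.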

Additional observations from a re-analysis of the deposited data

Results flagged for a closer look

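Both genotypes of the 46 tested axon guidance genes make 92 groups of 5 values. A single mouse stood far from its group in 4 of them, and about 4.6 are due by chance. Of these 4, 3 were values of wild-type mouse 3, which was highest for Sema4d (12.20) and Unc5a (10.40) and lowest for Epha2 (4.57). The remaining one was knock-out mouse 1 with the highest Plxnb2 value of its genotype (8.72).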

How the results depend on the processing

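The test was repeated with other limits on expression (none or log2(50)), other scalings (centred medians or quantiles), a variance prior without trend, weighted samples, the replicate block, Y-linked transcripts (4, averaged) as covariate, without each mouse and at an adjusted p under 0.01. The Y-linked average ranged from 9.52 to 10.62 over the 10 mice and was lowest in wild-type mice 3 (9.52) and 4 (9.88). These transcripts were present in every mouse, so this covariate does not compare sexes. For the 36 genes followed, 550 of 642 refitted differences kept their direction and their side of the threshold. Of the rest, 48 lost the call, 16 gained it and 28 changed sign. The members that rose numbered 3 with the Y-linked covariate, 2 with a variance prior without trend, 7 with sample weights and 0 at an adjusted p under 0.01 (limma), where 1 fell. Those that fell numbered 4 without an expression limit and 11 with sample weights. With 1 mouse left out, 1 to 2 rose and 4 to 7 fell, and fewer mice were then fitted. Of the pathway list, 17 rose and 17 fell with sample weights. In this list 7 fell without an expression limit, 5 with the replicate block and 4 at an adjusted p under 0.01. With 1 mouse left out, 6 to 13 rose, the 13 without wild-type mouse 3, and 4 to 15 fell, the lowest number without knock-out mouse 3 or 5 and the highest without wild-type mouse 3. Of all tested genes, 2093 rose and 2127 fell with sample weights, 623 and 371 at an adjusted p under 0.01, and 833 to 1335 rose and 560 to 1161 fell with 1 mouse left out. Median centring gave 942 higher and 979 lower. Sign changes occurred for genes that did not pass. Efnb2 had -0.032 with the Y-linked covariate, -0.037 after median centring, -0.055 after quantile normalization and -0.073 with sample weights. Plxnb1 had -0.020 after quantile normalization and -0.052 with sample weights, and Plxnc1 had 0.033 with sample weights. With 1 mouse left out, the differences ranged from -0.042 to 0.060 for Efnb2, from -0.18 to 0.20 for Ntn1, from -0.081 to 0.014 for Plxna1, from -0.016 to 0.15 for Plxnb1, from -0.10 to 0.074 for Plxnc1, from -0.11 to 0.0041 for Sema5a and from -0.12 to 0.0079 for Unc5b. The cause of these changes was not tested. Deviations from the genotype mean correlated between -0.22 and 0.07 for same-numbered mice of the 2 genotypes. This cannot show whether such mice share a litter or a batch. The replicate block left 1 member higher and 6 lower, Plxnb3 losing its call (limma adjusted p = 0.0591). Of the pathway list 5 stayed lower. Nrp1 and Arhgef15, both named after the values had been seen, were among those that lost their call (limma adjusted p = 0.0599 and 0.0616). Depth is unknown and limits what can be said of genes with few reads.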
